A study of Mus musculus with 12 samples.

Results

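The Notch pathway was followed through 10 listed genes as naive mouse embryonic stem cells (ESCs) became epiblast-like cells (EpiLCs). The members were taken by name from the receptors, ligands and targets of the pathway: the receptors Notch1, Notch2, Notch3 and Notch4, the ligands Dll1, Dll3 and Jag1, the targets Hes1 and Hey1, and the modifier Lfng. Gene IDs of the count table were matched to symbols by the GENCODE mouse annotation, which found all 10 members among 51467 genes. ESCs were grown in serum medium with LIF and 2i (the inhibitors PD0325901 and CHIR99021), and EpiLCs were the same cells about 56 h after LIF and 2i were removed. All cultures received 4-thiouridine (4sU) at 500 µM for 30 min, so the controls carried the label too. RNA from each culture gave a library of captured 4sU RNA, which holds nascent transcripts, and a library of total RNA depleted of ribosomal RNA. Each of the 4 groups had 3 libraries. The labels name neither a cell line nor an altered gene; for differentiation the study's methods list a V6.5 ESC line that carries fluorescent reporters of the miR-290 and miR-302 microRNA clusters, which both cell types would then share.

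Notch signalling runs between touching cells. A ligand of the Delta or Jagged family on 1 cell pulls on a Notch receptor on its neighbour, ADAM proteases and gamma-secretase then cut the receptor, and the freed intracellular domain enters the nucleus, where it joins the DNA-binding protein RBPJ and a Mastermind coactivator to switch on Hes and Hey repressor genes. In the early embryo the pathway is known for its part in the exit from pluripotency, in the choice between germ layers and, later, in the segmentation clock of the presomitic mesoderm. Hes1 is a textbook case of an unstable mRNA, and its protein represses its own gene; the level of Hes1 can oscillate.

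The members lie on 6 chromosomes (mm10, positions of the count table): Notch1 at chr2:26457903-26503822, Jag1 at chr2:137081456-137116644, Notch2 at chr3:98013538-98150361, Hey1 at chr3:8663359-8667256, Lfng at chr5:140607320-140615545, Dll3 at chr7:28293553-28302238, Hes1 at chr16:30065340-30067796, and Dll1, Notch3 and Notch4 all on chromosome 17, at chr17:15367354-15375976, chr17:32120820-32166880 and chr17:34564268-34588503. All are protein-coding. Their exonic length ran from 1468 bases in Hes1 to 10500 bases in Notch2. Exons of Notch1, Notch3 and Dll1 overlap a non-coding gene on the opposite strand, whose reads the stranded counting kept apart. Exons of Notch2 overlap the unclassified transcript Gm42820 on the same strand, which had at most 85 reads in a library. How many Notch2 reads the overlap touches was not tested.

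RBPJ binds DNA at the core GTGGGAA, so the promoters of the members were searched for it on both strands, in the 250 bases before each start listed in RefSeq (GRCm38.p6). Hes1 and Hey1 had no entry in the promoter table and were not searched. Of the 8 members searched, only Lfng held the core, and 1779 of 32851 windows in the table held it (5.42%). The shorter string TGGGAA, which lies inside the longer one, was also found in 1 of the 8 members, again Lfng, and in 21.6% of all windows. The Lfng window, chr5:140607091-140607340 on the plus strand, is shown because no other member searched held a match. Matches to either string are in capitals (the second of them GTGGGAA, the first TGGGAA read from the other strand):

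Lfng promoter: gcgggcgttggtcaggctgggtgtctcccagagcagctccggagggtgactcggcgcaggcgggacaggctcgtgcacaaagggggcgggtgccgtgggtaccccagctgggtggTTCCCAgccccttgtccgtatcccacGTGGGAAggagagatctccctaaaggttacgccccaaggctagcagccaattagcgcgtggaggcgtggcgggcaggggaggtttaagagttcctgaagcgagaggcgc

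The GTGGGAA in this window began 109 bases before the start, and 66% of its bases were G or C. A match of letters is a description of the sequence, and binding was not measured.

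The labels were checked against marker genes. The summed level of naive pluripotency markers was 2370 to 2610 in ESC total and 45.8 to 52.4 in EpiLC total libraries, in CPM (counts set relative to the library total, here after TMM scaling for library composition), and that of formative and primed markers was 147 to 158 and 1310 to 1610. The 6 neural markers summed to 93.6 to 104 CPM in ESC total and 90.9 to 107 in EpiLC total, with overlap, and to 77.1 to 100 in ESC 4sU and 118 to 128 in EpiLC 4sU, without overlap and in the direction of nascent Hes1. Pax6 was called as higher in both assays (42.4-fold in total and 21.6-fold in nascent RNA) and Sox1 in nascent RNA (2.06-fold), while Tubb3 and Olig2 were not called and Neurog2 was below the filter. Nascent Tubb3 went the other way, short of the fold threshold (log2 fold change -0.88, adjusted p = 0.0234), and nascent Olig2 was at 0.02. None of the 6 was at 0 throughout a group. The 6 primitive streak and mesoderm markers summed to 19.8 to 29 CPM in ESC 4sU and to 97.3, 46 and 51.9 in EpiLC 4sU, between the cell types in the direction of the members that rose. In total RNA they summed to 11.2 to 25.7 in ESCs and 20.1 to 31.4 in EpiLCs, with overlap. Of these T was called as higher in both assays (5.09-fold in total and 18.9-fold in nascent RNA) and Mixl1 in total RNA (5.69-fold), Eomes was not called, and Tbx6, Mesp1 and Msgn1 were below the filter. Mesp1 was at 0 in all 4sU libraries and Msgn1 in those of EpiLCs. Feeder fibroblast markers summed to 3.88 to 4.73 CPM in ESC total and 14.6 to 18.9 in EpiLC total. Of the 7 genes, 2 were at 0 in ESC total and 1 in EpiLC total. Dcn, with 0 reads in every ESC library, and Col1a2 were called as higher in total RNA (148-fold and 23.8-fold). Thy1 was not called, and Col1a1, Col3a1, Lum and Postn were below the filter. Endothelial markers summed to 182 to 202 in ESC total, most of it Pecam1, and to 7.49 to 9.44 in EpiLC total, with Emcn at 0 in all 12 libraries. Pecam1 (41.6-fold) and Tek (3.46-fold) were called as lower in total RNA. Cdh5, Kdr and Emcn were below the filter, and Cdh5 had 0 reads in ESC total. Primitive endoderm markers summed to 4.93 to 10.4 CPM in ESC total and 7.58 to 9.04 in EpiLC total. Of these Sox17 was called as lower (17.5-fold) and Gata4 as higher (2.36-fold, with overlapping libraries) in total RNA. Pdgfra was not called, and Gata6 and Sox7 were below the filter. Pax6, T, Mixl1, Col1a2 and Dcn reached the filter's 3 CPM in no ESC library and passed through EpiLCs, where they are high. Their fold changes rest on few ESC reads, 2 to 7 a library for Pax6 and 0 to 3 for Col1a2. Sox17 passed through ESC 4sU libraries alone and had 0 to 6 reads in EpiLC libraries. The part of other cells in the results below was not tested. In bulk RNA, fewer cells of a type and less RNA per cell cannot be told apart.

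Library totals were 3097693 to 5385644 reads for 4sU and 9300845 to 21975684 for total RNA. The members' counts ran from 9 to 5214 reads, and 21 of 120 values were under 25 reads, all of them from Notch4, Dll1, Dll3, Hey1 or Lfng. The ESC replicate 3 libraries stood apart from ESC replicates 1 and 2. Dll1 was lower there by a ratio of 4.39 in 4sU and 6.11 in total RNA, Lfng by 1.62 and 2.43, and Notch4 by 1.22 and 1.96, whereas Notch3 was 1.61 times as high in total RNA. The mesoderm marker T moved with Dll1, Lfng and Notch4, with 44 and 45 reads in ESC total replicates 1 and 2 and 2 reads in replicate 3. Notch2 and Dll3 went the other way in total RNA, as Notch3 did, at 1.3 and 1.18 times the mean of replicates 1 and 2. Summed primitive streak and mesoderm markers were 25.7, 22.7 and 11.2 CPM in the 3 ESC total libraries. Values without both replicate 3 libraries are given beside the members they touch.

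Calls needed a limma-voom p below 0.05 after Benjamini-Hochberg adjustment and a log2 fold change beyond 1 in either direction, and every fold change is EpiLC minus ESC. In total RNA 4 of the 10 members rose (Notch2, Notch3, Dll3 and Lfng), 1 fell (Notch4) and 5 were not called. Of all 14731 genes tested, 27.6% were called in total RNA, 16.3% higher and 11.2% lower in EpiLCs. In nascent RNA the same 4 members rose and none fell in limma-voom, edgeR or DESeq2 (1 was lower at an unadjusted p under 0.05, Notch1), against 25.5% of all genes called, 11.9% higher and 13.5% lower. By adjusted p alone 6 members passed in total RNA (Notch1 the sixth) and 6 in nascent RNA (Notch1 and Hes1 besides the risers). By that rule 9353 of all 14731 genes passed in total RNA and 7731 in nascent RNA. For mRNA stability, the change in total RNA minus the change in nascent RNA, 1 member was called, Hes1, and it was lower in EpiLCs; 1.54% of all genes were called, 1.24% higher and 0.305% lower. These stability calls split into 182 higher and 45 lower genes, and into 90 and 70 when the scaling factors were taken from all genes before the filter, which kept Hes1 called. The median log2 fold change of the members was 0.25 in total RNA, 0.53 in nascent RNA and 0.21 in stability, beside 0.02, -0.09 and 0.11 over all genes tested. All 10 passed the filter on low values (3 CPM in at least 3 libraries), but Dll3 reached 3 CPM in 1 of 6 ESC libraries and so passed through EpiLCs, where it is high, and Notch4 reached it in no EpiLC total library.

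**Figure D1:**
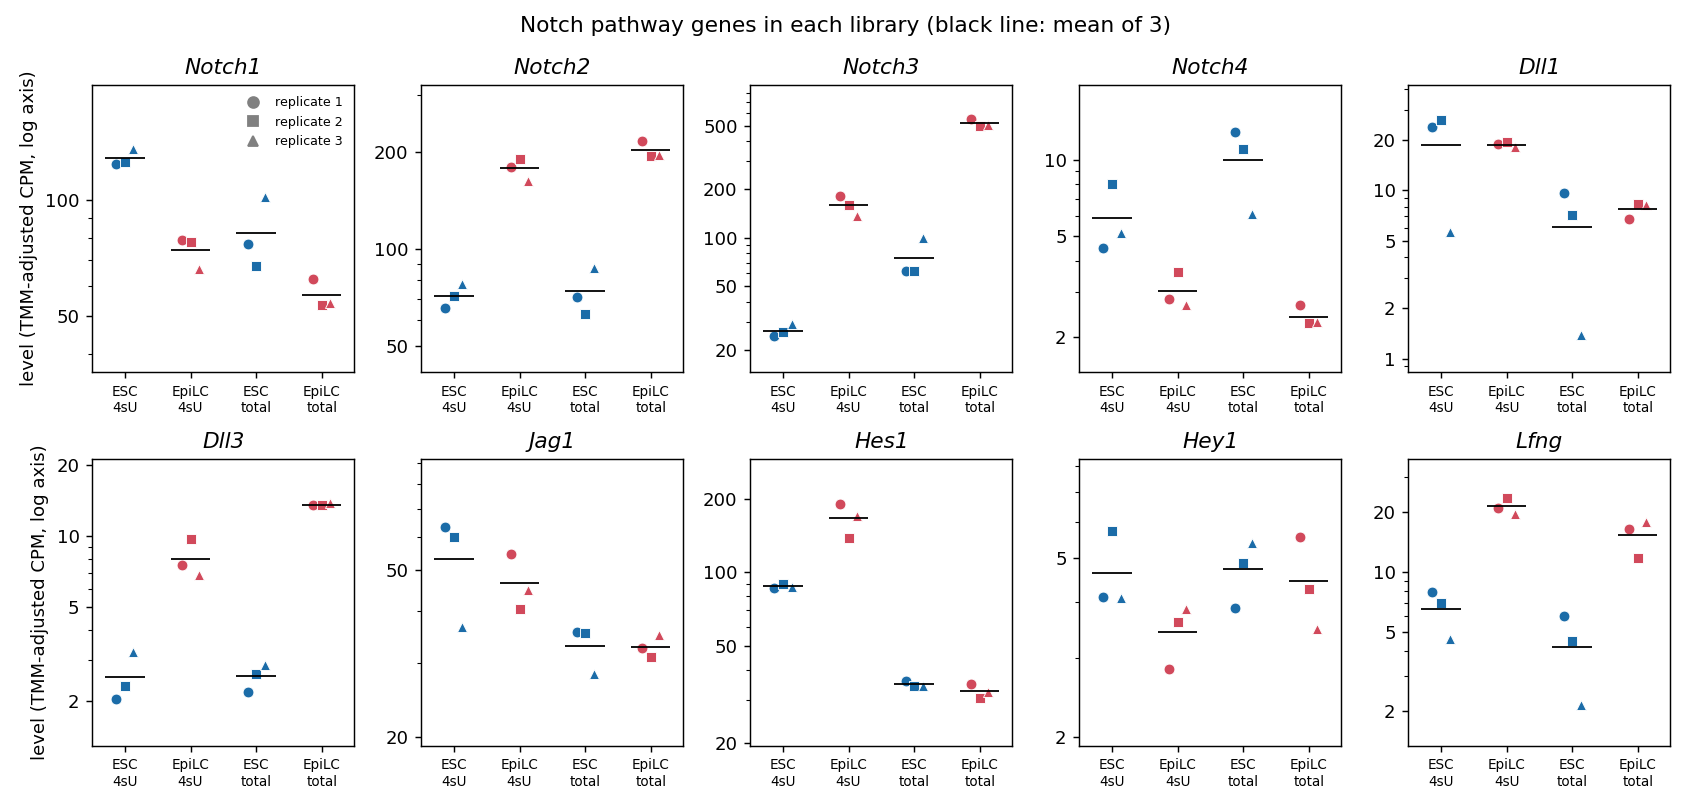
Level of each of the 10 genes in TMM-adjusted CPM (log axis, its own range per gene) in 3 libraries of ESC and EpiLC 4sU and total RNA; symbols mark the replicate number and black lines the mean. Notch2, Notch3, Dll3 and Lfng were higher in every EpiLC library than in any ESC library of the same assay, and Hes1 was so in 4sU RNA, while its total RNA libraries overlapped.

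Notch3, a receptor best known from vascular smooth muscle, had the largest rise among the members. Its total RNA was 62.0, 62.2 and 100 CPM in ESCs and 548, 494 and 507 CPM in EpiLCs. No EpiLC library came near the ESC range. The log2 fold change was 2.84 ± 0.14 (SE, adjusted p = 5.67e-10), a 7.17-fold rise. Nascent Notch3 went from 24.3, 25.8 and 29.0 CPM to 182, 161 and 137 CPM, a log2 fold change of 2.60 ± 0.21 (adjusted p = 2.11e-07). Without the ESC replicate 3 libraries the values were 3.04 in total and 2.64 in nascent RNA.

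Notch2, a receptor expressed widely in the embryo, rose less. Total Notch2 was 71.0, 62.9 and 87.0 CPM in ESCs and 217, 195 and 196 CPM in EpiLCs, and the cell types did not overlap (log2 fold change 1.48 ± 0.11, adjusted p = 1.97e-08). Nascent Notch2 was 65.4, 71.4 and 77.5 CPM in ESCs and 180, 190 and 162 CPM in EpiLCs (1.32 ± 0.12, adjusted p = 7.89e-07). The nascent and the total change differed by 0.16, with a 95% interval of -0.19 to 0.50.

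Notch1, the receptor most studied in lymphocytes and in early development, went the other way by an amount short of the fold threshold. Total Notch1 was 77.2, 67.4 and 102 CPM in ESCs and 62.4, 53.6 and 54.1 CPM in EpiLCs, so every EpiLC library lay below every ESC library (log2 fold change -0.50 ± 0.13, adjusted p = 0.00295). Nascent Notch1 was 124, 126 and 136 CPM in ESCs and 78.9, 78.0 and 66.5 CPM in EpiLCs (-0.78 ± 0.14, adjusted p = 0.000328). Without the ESC replicate 3 libraries the total value was -0.36.

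Notch4, a receptor best known from endothelium, was the member that fell. Its total RNA was 12.9, 11 and 6.10 CPM in ESCs and 2.68, 2.27 and 2.29 CPM in EpiLCs, which rests on 62 to 223 reads in ESC libraries and 23 or 24 in EpiLC libraries. The groups did not overlap (log2 fold change -2.05 ± 0.33, adjusted p = 7.54e-05), and the value was -2.29 without the ESC replicate 3 libraries. Nascent Notch4 was 4.50, 8.05 and 5.15 CPM in ESCs and 2.83, 3.60 and 2.67 CPM in EpiLCs, a difference that did not pass (-0.91, 95% interval -1.94 to 0.12, adjusted p = 0.126). Without the ESC replicate 3 libraries the nascent value was -1.0 (adjusted p = 0.0132), at the fold threshold and not called. The endothelial marker sum, most of it Pecam1, moved in the same direction as Notch4 total RNA, as given above, and its part in the result was not tested. Tek was lower in EpiLCs too, while Cdh5 had 0 reads in ESC total and Emcn 0 in all 12 libraries. The naive marker sum also moved in that direction.

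With levels divided by exonic length (RPKM, on TMM-scaled totals), the make-up of the receptor RNA could be set out. In ESC total RNA, Notch3, Notch1 and Notch2 made up similar parts of the summed receptor RPKM, at 34.7% ± 3.57, 32.6% ± 0.869 and 26.6% ± 0.966 (SD, n = 3), with 6.09% ± 2.81 for Notch4. In EpiLC total RNA, Notch3 held 71.5% ± 0.361, Notch2 21.5% ± 0.198, Notch1 6.65% ± 0.193 and Notch4 0.407% ± 0.0152. The sum of the 4 receptors was 26.5 ± 5.20 RPKM in ESCs and 89.8 ± 5.22 in EpiLCs. In nascent RNA the order differed: Notch1 was first in ESCs with 55.3% ± 1.35, ahead of Notch2 at 27.7% ± 0.616 and Notch3 at 13.3% ± 0.416. In EpiLC nascent RNA Notch3 held 44.0% ± 2.29, Notch2 37.6% ± 1.92 and Notch1 17.4% ± 0.250. The sum was 24.6 ± 1.54 RPKM in ESC and 45.1 ± 4.61 RPKM in EpiLC nascent RNA. These shares are descriptions, since they follow from the levels tested above.

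**Figure D2:**
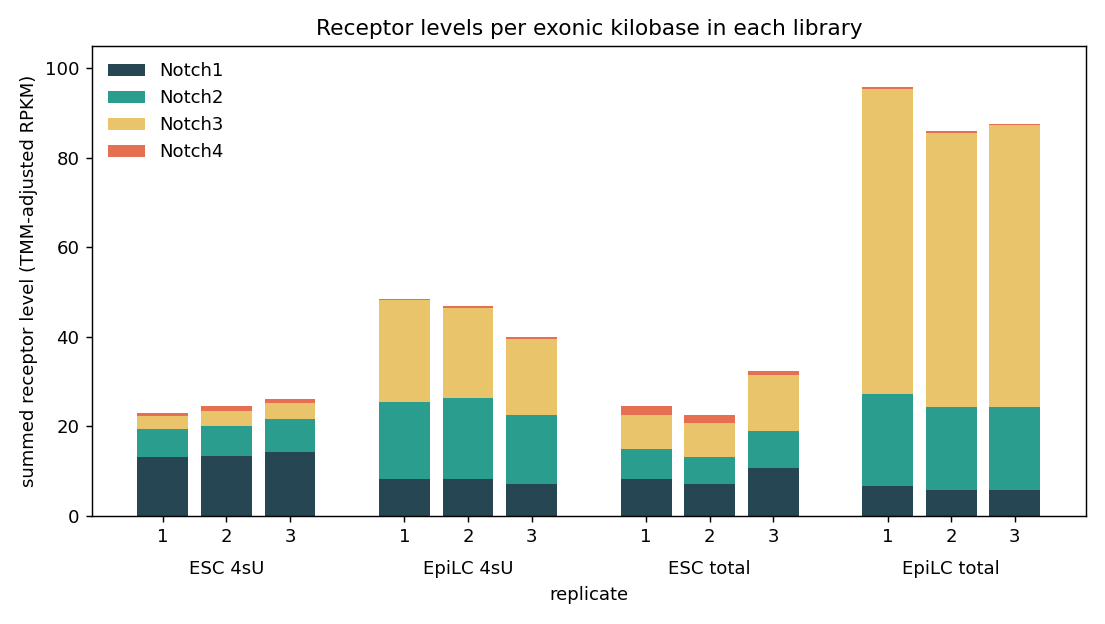
Stacked level of the 4 receptors in TMM-adjusted RPKM in each of the 12 libraries, by group and replicate number. Notch1 is the tallest part of each ESC 4sU bar, Notch3 of each EpiLC total bar, where the receptors sum to 89.8 RPKM on average.

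Among the ligands, Dll3 rose. Dll3 is a divergent Delta protein that acts mainly inside its own cell and is best known from somite formation. Its total RNA was 2.20, 2.62 and 2.85 CPM in ESCs, or 29 to 52 reads, and 13.5, 13.5 and 13.8 CPM in EpiLCs. The 3 EpiLC libraries lay within a narrow band far above the ESC libraries (log2 fold change 2.43 ± 0.16, adjusted p = 1.06e-08, 5.37-fold). Nascent Dll3 was 2.04, 2.33 and 3.25 CPM in ESCs, from 10 to 13 reads, and 7.54, 9.75 and 6.82 CPM in EpiLCs (1.69 ± 0.27, adjusted p = 0.000144). The change in stability was 0.74 ± 0.32, with a 95% interval of 0.06 to 1.42, and did not pass (adjusted p = 0.185).

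Dll1, a Delta ligand that activates receptors on neighbouring cells, was not called in any comparison, and its spread lay within the ESCs. Nascent Dll1 was 23.9, 26.1 and 5.69 CPM in ESCs and 18.8, 19.3 and 18.1 CPM in EpiLCs. Total Dll1 was 9.68, 7.15 and 1.38 CPM in ESCs and 6.81, 8.34 and 8.15 CPM in EpiLCs. The ESC range enclosed all EpiLC values in each assay, and the log2 fold changes were 0.51 ± 0.55 in total RNA (adjusted p = 0.435) and 0.16 ± 0.55 in nascent RNA (adjusted p = 0.826). Without the ESC replicate 3 libraries the direction turned, to -0.09 in total RNA (adjusted p = 0.604) and -0.44 in nascent RNA (adjusted p = 0.0221), so no direction can be given for Dll1.

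Jag1, a ligand of the Jagged family, had overlapping libraries in both assays. Total Jag1 was 35.5, 35.3 and 28.3 CPM in ESCs and 32.5, 31.0 and 35.0 CPM in EpiLCs (log2 fold change -0.02, 95% interval -0.36 to 0.32, adjusted p = 0.925). Nascent Jag1 was 63.2, 59.9 and 36.6 CPM in ESCs and 54.7, 40.3 and 44.8 CPM in EpiLCs (-0.20, 95% interval -0.60 to 0.20, adjusted p = 0.386). Leaving out the ESC replicate 3 libraries gave -0.12 and -0.44, the latter with an adjusted p of 0.00241.

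Lfng, the Lunatic fringe enzyme that adds a sugar to Notch receptors and so shifts their response between Delta and Jagged ligands, rose in both assays. Total Lfng was 6.03, 4.48 and 2.16 CPM in ESCs and 16.5, 11.7 and 17.9 CPM in EpiLCs (log2 fold change 1.83 ± 0.26, adjusted p = 2.33e-05). Nascent Lfng was 7.97, 6.98 and 4.61 CPM in ESCs and 21, 23.5 and 19.6 CPM in EpiLCs (1.70 ± 0.34, adjusted p = 0.000802). No EpiLC library overlapped an ESC library in either assay, and the low ESC values were those of replicate 3. Without them the rise was 1.53 in total and 1.5 in nascent RNA. Its promoter window is the one printed above.

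Hes1, the transcriptional repressor that is the best known target of the pathway, was higher in EpiLCs in nascent RNA and showed no such difference in total RNA. Nascent Hes1 was 86.5, 89.6 and 86.8 CPM in ESCs and 190, 138 and 170 CPM in EpiLCs. Every EpiLC library lay above every ESC library, with a log2 fold change of 0.91 ± 0.11 (adjusted p = 7.09e-06), which is 1.87-fold and short of the fold threshold. Total Hes1 was 36.0, 34.4 and 34.4 CPM in ESCs and 35.0, 30.6 and 32.4 CPM in EpiLCs, and the ranges overlapped (-0.10, 95% interval -0.34 to 0.14, adjusted p = 0.444). The difference between the assays, tested as the interaction of cell type and assay, was -1.01 ± 0.15 (95% interval -1.33 to -0.68, adjusted p = 0.00402), which called Hes1 as less stable in EpiLCs. Reading the interaction as stability takes RNA levels to be steady within each cell type. The study's methods assume so, and it was not tested here. The value lies at the fold threshold and was between -1.14 and -0.94 over all alternative fits, each with an adjusted p under 0.05. It fell short of the threshold in 6 of these fits: without ESC 4sU replicate 1 (-0.98), EpiLC 4sU replicate 1 (-0.98), EpiLC total replicate 2 (-0.96) or both ESC replicate 3 libraries (-0.99), with library totals alone (-0.94) and with sample quality weights (-0.98). The neural marker sum moved with nascent Hes1, though Tubb3 went the other way, as given above, and its part in the result was not tested. The nascent value passed the fold threshold without EpiLC 4sU replicate 2 (1.04).

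Hey1, another repressor target, was low, with 12 to 97 reads a library. Its total RNA was 3.88, 4.88 and 5.41 CPM in ESCs and 5.58, 4.26 and 3.48 CPM in EpiLCs, which overlap (log2 fold change -0.08, 95% interval -0.51 to 0.35, adjusted p = 0.733). Nascent Hey1 was 4.09, 5.73 and 4.07 CPM in ESCs and 2.83, 3.60 and 3.86 CPM in EpiLCs. Each EpiLC value was below each ESC value, but the difference did not pass (-0.44, 95% interval -1.14 to 0.26, adjusted p = 0.274).

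**Figure D3:**
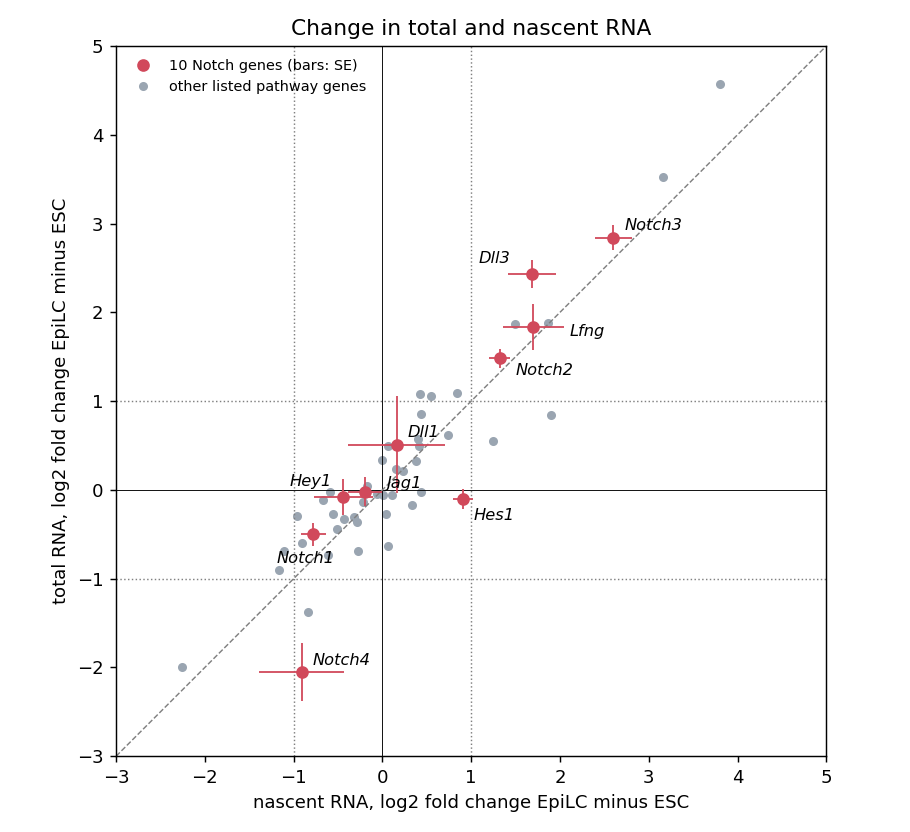
Log2 fold change of EpiLC against ESC in nascent RNA (x axis) and total RNA (y axis) for the 10 genes (red, bars are SE) and 42 of the other listed pathway genes tested (grey); dotted lines mark the fold threshold and the dashed line equal change. Notch2, Notch3 and Lfng lie near the line of equal change, Hes1 lies below it at 0.91 and -0.10, and Notch4 lies below it at -0.91 and -2.05.

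Relative mRNA stability, the log2 ratio of total over 4sU level in libraries of the same number, ranked the members in each cell type. The labels do not say that a number marks a shared extract, so these pairs serve to show the spread, and the mean does not depend on them. No absolute rate can be read from the ratio, since scaling was done library by library and the spike-in entries held 0 reads. Hes1 stood low, at -1.26, -1.38 and -1.33 in the 3 ESC pairs and at -2.43, -2.17 and -2.39 in the EpiLC pairs, which put its mean at percentile 21.9 and 11 of all genes tested. Its total level was 0.399 of its 4sU level in ESCs and 0.198 in EpiLCs. Dll1 was also low, with means of -1.72 ± 0.37 in ESCs (SD, n = 3) and -1.27 ± 0.17 in EpiLCs, at percentiles 18 and 19.8. Notch3 was the highest member, with 1.35, 1.27 and 1.79 in ESCs and 1.59, 1.62 and 1.89 in EpiLCs, at percentiles 86.0 and 90.3. Its change between the cell types was 0.24, with a 95% interval of -0.31 to 0.78.

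The receptors thus spread widely in relative stability. Notch1 had means of -0.67 ± 0.24 in ESCs and -0.39 ± 0.13 in EpiLCs, and Notch2 of 0.03 ± 0.19 and 0.19 ± 0.13, both in the middle part of all genes, whose quartiles were -1.10 and 0.98 in ESCs and -0.89 and 1.02 in EpiLCs. The stability change of Notch1 was 0.28 (adjusted p = 0.41), and 0.41 (adjusted p = 0.0294) without both ESC replicate 3 libraries. Both values were short of the fold threshold. Notch4 was 1.51, 0.45 and 0.24 in ESCs and averaged -0.32 ± 0.30 in EpiLCs. Its stability change of -1.14 ± 0.58 did not pass (adjusted p = 0.261), but it did without both ESC replicate 3 libraries (-1.29, adjusted p = 0.025) or without that of total RNA alone (-1.38, adjusted p = 0.0244). Stability calls over all genes also grew in these fits. They were 680 higher and 99 lower in the former and 572 and 86 in the latter, against 182 and 45 in the fit reported. Jag1 and Lfng, with means of -0.65 ± 0.25 and -0.70 ± 0.34 in ESCs and -0.49 ± 0.22 and -0.49 ± 0.45 in EpiLCs, lay below the median of all genes in both cell types. Dll3 and Hey1 averaged 0.03 in ESCs, and 0.77 ± 0.28 and 0.35 ± 0.56 in EpiLCs.

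**Figure D4:**
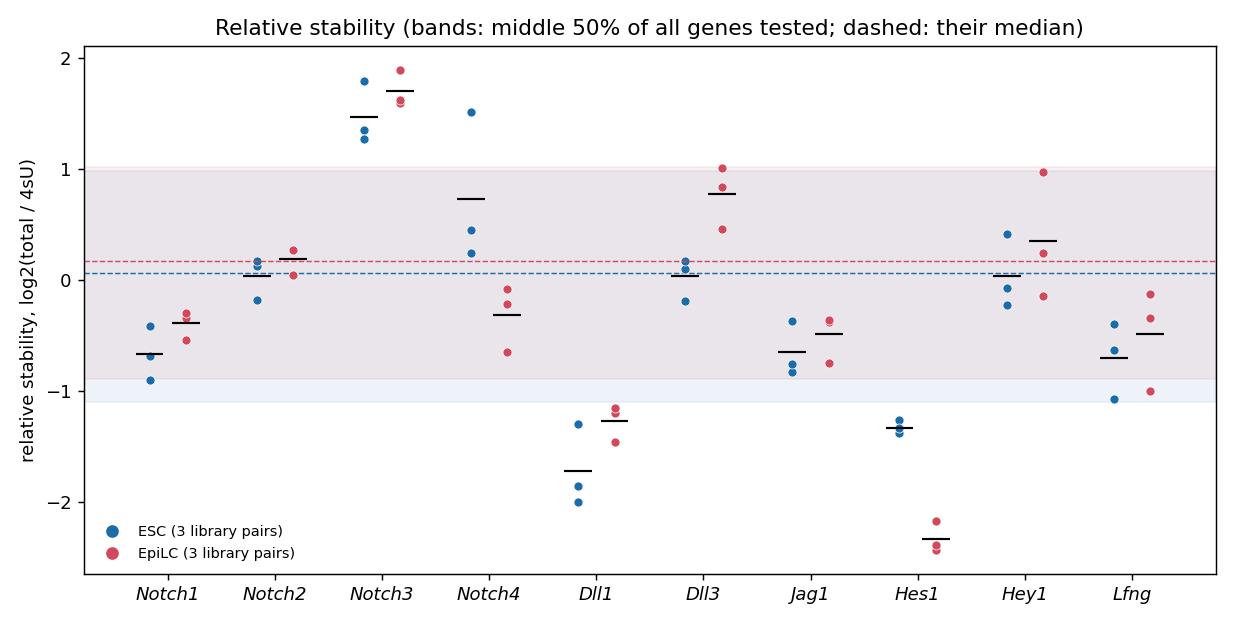
Relative stability, log2 of total over 4sU level, for each gene in 3 ESC (blue) and 3 EpiLC (red) pairs of libraries of the same number, with the mean as a black line; bands hold the middle 50% of all genes tested and dashed lines their median. Hes1 is below the bands in all 6 pairs and lower in EpiLCs (mean -2.33) than in ESCs (-1.33), and Notch3 is above them.

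Per length, the order of the members also differed between the cell types. In ESC total RNA Hes1 was highest at 23.8 RPKM, above Notch3 (9.30), Notch1 (8.65), Notch2 (7.01) and Jag1 (5.89), whose neighbours overlapped in their libraries. Hey1, Lfng, Dll1, Notch4 and Dll3 followed between 1.95 and 0.977 RPKM, again with overlapping neighbours. In EpiLC total RNA Notch3 was first at 64.2 RPKM, above Hes1 (22.3) and Notch2 (19.3) with no overlap. Lfng (6.67), Notch1 (5.98) and Jag1 (5.85) were not separated from each other, Dll3 stood at 5.19, Dll1 (2.17) and Hey1 (1.83) overlapped, and Notch4 was last at 0.366 RPKM. In nascent RNA Hes1 was first in both cell types, at 59.7 RPKM in ESCs, where Notch1 (13.6) was next, and 113 RPKM in EpiLCs, where Notch3 (19.9) and Notch2 (16.9) were next and overlapped.

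The rest of the pathway was read from a list of 55 further genes, of which 43 passed the filter. In total RNA 7 of the 43 rose and 2 fell, in nascent RNA 6 rose and 3 fell, and for stability limma-voom, edgeR and DESeq2 each called 0, with 12 at an unadjusted p under 0.05. The calls are to be read against the 27.6%, 25.5% and 1.54% of all genes given above. The share of all genes at an unadjusted p under 0.05 was not counted, so the 12 has no such background. Maml3, Neurl1b and Aph1b reached the filter's 3 CPM of the library total in no ESC library. They passed through EpiLCs, where they are high. By adjusted p alone 5 of the 43 passed for stability, among them Poglut1 (-0.53), Itch (-0.46), Hdac1 (-0.69) and Ep300 (0.65). By that rule 678 of all 14731 genes passed. Nrarp was called without ESC 4sU replicate 3 (-1.01). Itch and Hdac1 were named after their values were seen. The median log2 fold change of the list was -0.02 in total RNA, 0.06 in nascent RNA and 0.09 in stability. The 12 genes below the filter were the ligands and ligand-like genes Dll4, Dlk1, Dlk2 and Dner, the gamma-secretase subunits Aph1c and Psenen, and the target family members Hes2, Hes3, Hes5, Hes7, Hey2 and Heyl.

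By role, the 1 further ligand tested, Jag2, rose in both assays. Total Jag2 was 24.2, 26.9 and 33.6 CPM in ESCs and 104, 101 and 98 CPM in EpiLCs (log2 fold change 1.87 ± 0.11, adjusted p = 4.39e-09), and the nascent change was 1.49 ± 0.24 (adjusted p = 0.00013). Of 4 genes that glycosylate the receptor, Poglut1, which adds O-glucose, fell in total RNA from 189, 197 and 178 CPM to 71.1, 73.2 and 73.1 CPM (-1.38 ± 0.09, adjusted p = 9.1e-09). Its nascent change, -0.84 ± 0.11 (adjusted p = 1.99e-05), was short of the fold threshold. Of 8 tested genes that cut the receptor, none was called in total RNA by limma-voom. By adjusted p alone 5 of them passed there, as did 9353 of all 14731 genes. Aph1b, a gamma-secretase subunit with 3 to 6 reads in ESC 4sU libraries, rose in nascent RNA (1.90 ± 0.41, adjusted p = 0.00138).

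Among 14 ubiquitin ligase and endocytosis genes, Dtx4 and Neurl1b rose and Mib2 fell in total RNA. Dtx4, a Deltex E3 ligase, was 3.13, 3.67 and 8.95 CPM in ESCs and 45.7, 51.1 and 50.4 CPM in EpiLCs, an 11.4-fold rise (log2 fold change 3.52 ± 0.25, adjusted p = 1.6e-08) with a nascent change of 3.16 ± 0.34 (adjusted p = 3.34e-06). Mib2, a Mind bomb ligase that helps ligands to signal, was 80.7, 82.0 and 110 CPM in ESCs and 24.1, 22.6 and 20.8 CPM in EpiLCs (-1.99 ± 0.14, adjusted p = 1.86e-08), and nascent Mib2 fell as well (-2.26 ± 0.38, adjusted p = 0.000194). Neurl1b, a Neuralized ligase, was called in total RNA (1.09 ± 0.19, adjusted p = 0.000144) and in nascent RNA had a value of 0.84 ± 0.32 (adjusted p = 0.0375). Without EpiLC total replicate 2 its total value was 0.99, short of the threshold.

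Among 14 genes of the nuclear complex and corepressors, the Mastermind coactivators differed from each other. Maml3 was 0.753, 0.654 and 0.786 CPM in ESC total libraries, from 8 to 13 reads, and 18.7, 16.5 and 18.4 CPM in EpiLCs. It had the largest change on the list (log2 fold change 4.57 ± 0.25, adjusted p = 1.18e-09), having passed the filter through EpiLCs. Its nascent change was 3.80 ± 0.27 (adjusted p = 6.91e-08). Maml1 rose in total RNA (1.06 ± 0.10, adjusted p = 5.17e-07) and had a nascent value of 0.55 (adjusted p = 0.000396). Maml2 was called as lower in nascent RNA (-1.17 ± 0.21, adjusted p = 0.000303) and its total value was -0.90 (adjusted p = 0.00227). The acetyltransferase Ep300 rose in total RNA (1.08 ± 0.12, adjusted p = 2.85e-06), and the corepressor Cir1 fell in nascent RNA (-1.11 ± 0.25, adjusted p = 0.00187). A single library held several of these calls: Ep300 was at 0.95 without ESC total replicate 2, Maml2 at -0.90 without ESC 4sU replicate 2, and Cir1 at -0.81 without EpiLC 4sU replicate 2, all short of the fold threshold.

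Rbpj, the DNA-binding partner of the cleaved receptors, was 76.4, 83.4 and 111 CPM in ESC total and 79.2, 73.0 and 68.5 CPM in EpiLC total libraries, which overlap (log2 fold change -0.27 ± 0.13, adjusted p = 0.0816). Nascent Rbpj was 307, 235 and 253 CPM in ESCs and 180, 175 and 178 CPM in EpiLCs (-0.56 ± 0.13, adjusted p = 0.00217), below the fold threshold. Of 8 further Hes, Hey and feedback genes, Hes6 and Nrarp were tested. Hes6, a family member that counteracts Hes1, was 13.8, 14.8 and 14.4 CPM in ESC total and 50.1, 55.9 and 52.3 CPM in EpiLC total libraries (1.88 ± 0.10, adjusted p = 1.56e-09), with a nascent change of 1.86 ± 0.21 (adjusted p = 5.59e-06). Nrarp, a feedback inhibitor that Notch signalling induces, rose in nascent RNA from 8.38, 8.23 and 15.7 CPM to 23.8, 22.3 and 24.3 CPM (1.24 ± 0.20, adjusted p = 0.000149). Its total RNA, 7.82, 7.05 and 6 CPM in ESCs and 10.5, 10.4 and 10.1 CPM in EpiLCs, was not called (0.55 ± 0.17, adjusted p = 0.0092), and its stability value was -0.68 ± 0.26 (adjusted p = 0.139).

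**Figure D5:**
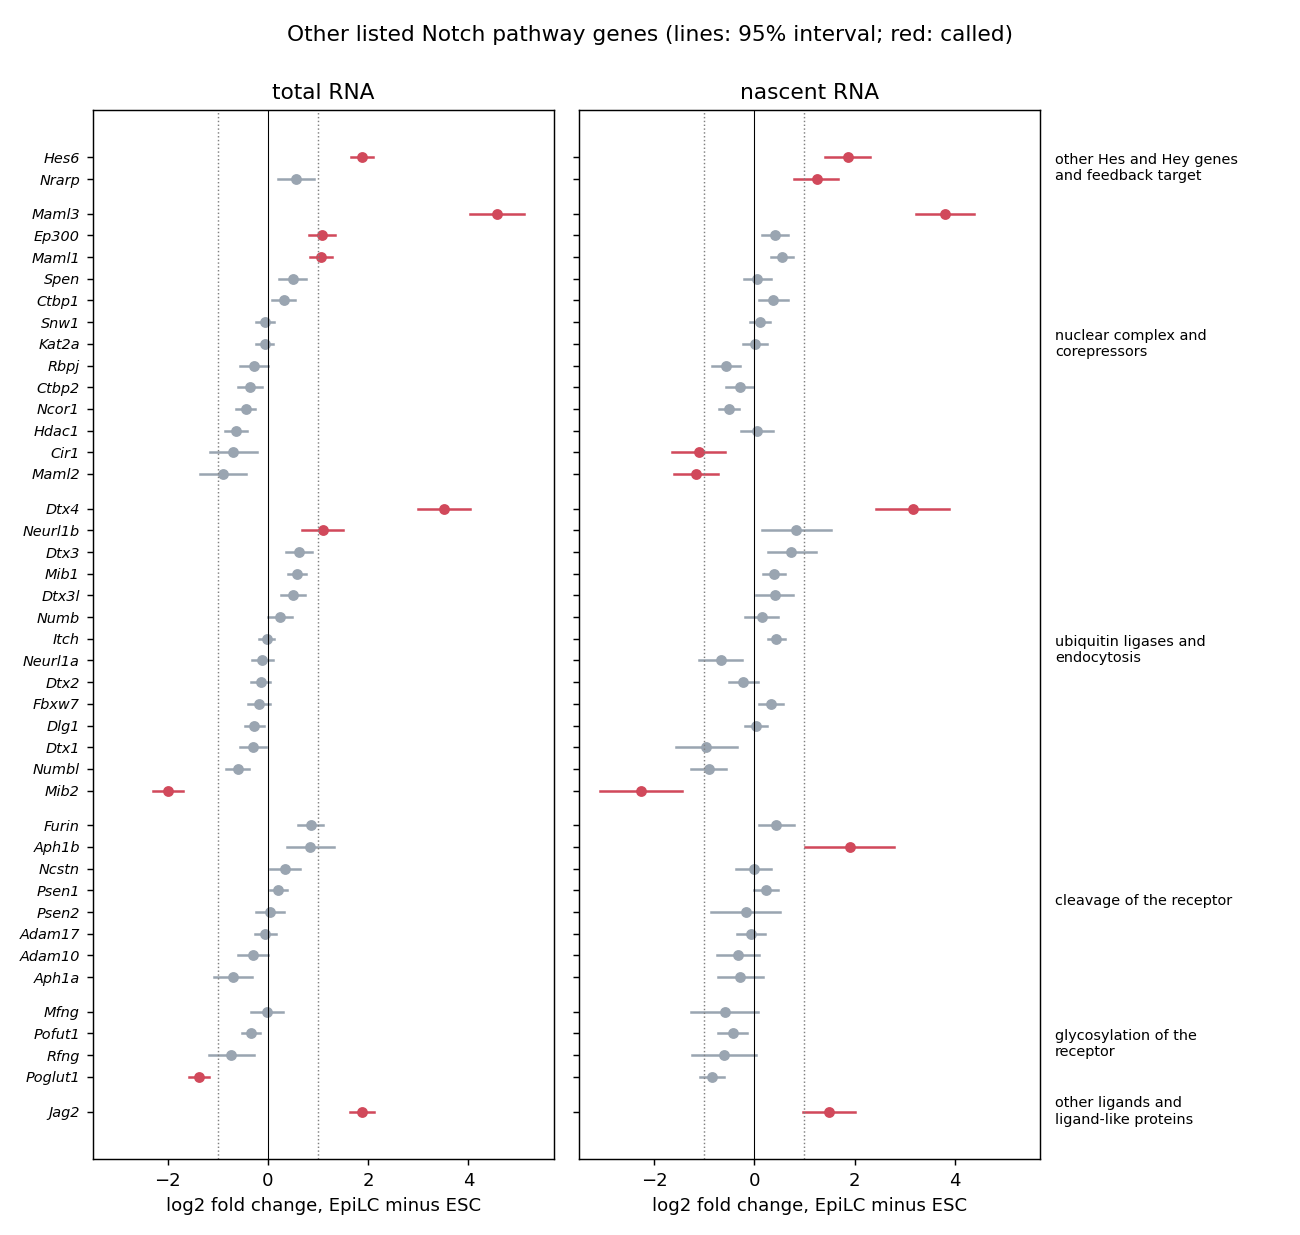
Log2 fold change of EpiLC against ESC with its 95% interval for 42 of the further pathway genes tested, grouped by role, in total RNA (left) and nascent RNA (right); red marks called genes and dotted lines the fold threshold. Maml3, Dtx4, Jag2 and Hes6 are red on the right of both panels, and Mib2 on the left of both.

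The genes whose level followed the members most closely over the 12 libraries were named by Pearson's r of log2 CPM among 12311 protein-coding genes. These libraries share 4 groups, so an r of this kind mostly restates the differences between groups, and it is given with no test. For Hes1 they were Nuak2 (r = 0.989), Pabpn1 (0.986) and Khdc4 (0.984). For Notch3 they were Arrdc1 (0.994), Rhobtb3 (0.993) and Amotl1 (0.993), and for Notch1 Zfp442 (0.977), Fgd6 (0.976) and Casz1 (0.976). For Dll3 they were Klhl23 (0.988), Arhgef10 (0.986) and Eif4e3 (0.985), and for Lfng Myb (0.986), Rgs17 (0.984) and Jade2 (0.979). Dll1, whose level turned on the ESC replicate 3 libraries, had Gadd45g (0.979), Zfp532 (0.958) and Snx30 (0.952), and Jag1 had Mtss1 (0.980), Fam76b (0.952) and Nup35 (0.95). Genes with r over 0.95 numbered 271 for Notch2, 195 for Notch3, 184 for Dll3, 107 for Hes1, 70 for Lfng and 38 for Notch1. They numbered 4 for Dll1, 2 for Jag1, 2 for Notch4 and 0 for Hey1. Among the members themselves r was 0.97 for Notch2 and Dll3, 0.90 for Notch2 and Notch3, -0.87 for Notch1 and Notch3, and 0.84 for Dll1 and Jag1.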

How the data were processed

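RNA was measured in 12 libraries, 3 each of ESC 4sU, ESC total, EpiLC 4sU and EpiLC total, grouped by the labels. The deposited values are raw read counts per gene. Per the submitters' processing notes and the file header, the authors trimmed adapters with cutadapt 1.14, aligned single-end reads to mm10 with STAR 2.5.3a, kept unique positions and summed reads over exons of GENCODE M14 genes with featureCounts 1.5.3, strand-specific, without ribosomal RNA genes. Unique alignment lowers genes with near-identical copies. Symbols came from GENCODE M21 (51274 of 51467 genes); 92 spike-in entries held 0 reads. Totals were 3097693 to 5385644 reads per 4sU and 9300845 to 21975684 per total library, so 4sU values carry more counting error.

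From these counts, the 14731 genes that reached 3 CPM in 3 or more libraries were tested. The study's methods name limma with an interaction term and this filter; voom and TMM were chosen here. limma-voom (limma 3.58.1; TMM from edgeR 4.0.16; R 4.3.3) fitted 4 group means to all 12 libraries, and the contrasts were EpiLC minus ESC in total RNA, in nascent RNA, and their difference (stability). All adjusted p-values for genes are limma's, Benjamini-Hochberg over all genes tested. Levels are CPM on TMM-scaled totals, and RPKM divides them by the exonic length in the table. The study calls its replicates biological, and the labels do not say which cultures were grown apart, so p-values measure the spread between these libraries. Replicates were compared by chi-square per degree of freedom (1.41 to 29.7), and no pair was within sampling noise. The code was tested on simulated data. Alternatives were other scalings, no filter, sample weights, DESeq2 1.42.0, the quasi-likelihood test of edgeR, replicate blocks, each assay alone, adjusted p alone and each library left out.

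The members, gene lists and naming rule were chosen with earlier results of these data known. The text names all 10 members, Rbpj, the pathway genes called in any contrast, and for 7 members the 3 protein-coding genes with the highest r. The values of 1 listed pathway gene and 1 listed marker are not reported here and are not drawn, though the counts and sums include them.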

Additional observations from a re-analysis of the deposited data

Results flagged for a closer look

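Hes1 differed between the assays under the same contrast: the EpiLC minus ESC difference was 0.91 in nascent RNA and -0.10 in total RNA on the log2 scale, and the test of the difference itself (the limma-voom interaction) gave -1.01 with an adjusted p of 0.00402; without both ESC replicate 3 libraries it was -0.99, short of the fold threshold. Total over 4sU was lower in each of the 3 EpiLC library pairs of the same number (-2.43 to -2.17) than in each of the 3 ESC pairs (-1.38 to -1.26).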

How the results depend on the processing

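The depth of the 4sU libraries limits Notch4, Dll3 and Hey1. Members called in total RNA numbered 5 without any 1 library and 5 to 6 in other fits; nascent calls, 4 as reported, numbered 4 to 5 and 4 to 6 (6 by adjusted p alone). Stability calls, 1 as reported, ran from 0 to 2 without 1 library and were 0 with library totals alone. Hes1 stability lost the fold threshold, with an adjusted p still under 0.05, with library totals alone (-0.94), with sample quality weights (-0.98) and without both ESC replicate 3 libraries (-0.99), where in either case Notch4 was the 1 member called, and without ESC 4sU replicate 1 (-0.98), EpiLC 4sU replicate 1 (-0.98) or EpiLC total replicate 2 (-0.96). Without ESC total replicate 3 Notch4 joined Hes1. Over all genes, stability calls were 182 higher and 45 lower as reported, and 738 and 108 with quality weights. They were 680 and 99 without both ESC replicate 3 libraries, and 572 and 86 without ESC total replicate 3. The causes were not tested. Hes1 nascent RNA passed the fold threshold without EpiLC 4sU replicate 2 (1.04), and Notch4 nascent RNA did with quality weights (-1.03). Further pathway calls, 9 in total RNA and 9 in nascent RNA, were 8 to 10 without any 1 library and 30 and 25 by adjusted p alone. Stability calls there ran from 0 to 1 without 1 library. They were 1 with quality weights, 1 without both ESC replicate 3 libraries and 5 by adjusted p alone. Of all 14731 genes, 9353, 7731 and 678 passed by adjusted p alone in total RNA, nascent RNA and stability. Maml1 total RNA was at the fold threshold and not called with no filter or with factors from all genes (1.00).

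Directions turned only for values that were not called in the fit reported. In total RNA, Jag1 was 0.07 with library totals alone, 0.01 with total libraries alone and -0.11 to 0.03 without 1 library; Hey1 was 0.01 with library totals alone and -0.24 to 0.08 without 1 library; Dll1 was -0.09 without both ESC replicate 3 libraries and -0.08 to 0.96 without 1 library. Dll1 nascent RNA was -0.02 in edgeR, -0.15 with quality weights, -0.44 without both ESC replicate 3 libraries and -0.35 to 0.60 without 1 library. Stability of Dll1 ran from -0.24 to 0.84 without 1 library. Stability of Lfng was -0.13 with quality weights and ran from -0.16 to 0.34 without 1 library.

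The replicate numbers were not taken as pairs in the tests, and served only to print total over 4sU ratios: deviations of 4sU and total libraries of the same number correlated at 0.0194 to 0.409, and 5 of 6 4sU libraries were closest to the total library of their own number. With the replicate number as a block Dll1 nascent RNA was -0.06, Hes1 stability was -1.01 (adjusted p = 0.00273), and no call of a member changed; over all genes the block raised stability calls from 182 higher and 45 lower to 281 and 73. With a block for cell type and number together, Hes1 stability was -1.01 (adjusted p = 0.000506) and these calls were 438 and 90. The scaling factors from all genes were an alternative chosen after seeing the data.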
